A study of Sus scrofa domesticus with 4 samples.

Results

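NOP56, PTMA and MYC are 3 genes tied to nuclear function and cell growth, and they were picked from earlier results of these same arrays. Their probes were found by matching the RefSeq identifier of each spot to the pig gene symbol, which gave 6 of the 43603 probes on the array and 3 of the 3029 genes that could be named. NOP56 had 1 probe, PTMA had 2 and MYC had 3. Because their measured change chose them, their values are given as a description, with no test.

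The study set endometrium, the lining of the uterus, cultured with orexin A (OXA) against endometrium cultured without it, on 4 Agilent 2-colour arrays. OXA is a peptide of the hypothalamus best known from the control of appetite and wakefulness. Tissue came from 4 Large White x Polish Landrace gilts aged 7 to 8 months and pregnant for 15 to 16 days. The OXA group was kept for 24 h with OXA, at 10 nM per the labels and at 10 µM per the design text of the series, and the control group was kept for 24 h with no treatment. Both groups shared a preceding 2 h culture of slices 3 mm thick and about 100 mg in weight. The sources used here do not say whether 1 gilt gave both RNAs hybridised to an array, and each RNA is from whole tissue, in which fewer cells of a type and less RNA per cell cannot be told apart. By the dye named for each sample, the OXA RNA carried Cy5 on arrays 1 and 3, and Cy3 was its dye on arrays 2 and 4. The protocol text instead words OXA as Cy5 throughout, and under that reading the directions given below for NOP56 and PTMA turn round and MYC is lower with OXA on all 4 arrays. The authors' deposited table of log2 ratios had slopes of 1.06, -1, 1.04 and -1.03 on the scanner ratio of Cy5 over Cy3, so its sign turns on arrays 2 and 4, where the sample labels put OXA in Cy3.

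NOP56 is a core protein of the box C/D small nucleolar ribonucleoproteins (snoRNPs), the particles that guide methylation of ribosomal RNA in the nucleolus. PTMA encodes prothymosin alpha, a small and very acidic nuclear protein that binds histone H1 and is abundant in dividing cells. MYC is a transcription factor that drives growth and ribosome production, and NOP56 and PTMA are both textbook genes of its target set.

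All 6 probes were well above background in 8 of 8 readings, and no spot was saturated. Over the tested probes, NOP56 lay at the 94.4th percentile of brightness, while only 96 and 228 probes were brighter than the PTMA probes A_72_P441011 and A_72_P728329. In Cy5, 62.3% to 74.5% of all probes read well above background, against 52.1% to 56.7% in Cy3 on arrays 2 to 4 and 31.7% in Cy3 on array 1, which came from another slide. OXA over control ratios correlated weakly between arrays over the tested probes, with r from -0.22 to 0.40. All 7 epithelial markers and 3 of 4 stromal fibroblast markers on the array were well above background in 8 of 8 readings, as were 5 of 5 smooth muscle and 5 of 5 endothelial markers. Of the 5 trophoblast and conceptus markers on the array, CYP19A1 was well above background in 8 of 8 readings, GATA3 and HAND1 in 7, IFNG in 4 and CDX2 in 0.

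NOP56 was higher in the OXA RNA than in the control RNA on each of the 4 arrays after normalization. Its log2 intensity was 13.95 with OXA and 13.53 in control on array 1, 14.71 with OXA and 14.10 in control on array 2, 13.87 with OXA and 13.79 in control on array 3, and 14.32 with OXA and 13.85 in control on array 4. The OXA over control log2 ratio was thus 0.42, 0.61, 0.08 and 0.47 on arrays 1 to 4. Array 3 held the smallest ratio, and the OXA and control intensities overlapped between arrays. The mean log2 ratio was 0.39 ± 0.22 (SD, n = 4 arrays), a fold of 1.31, with a standard error of 0.17 from the fit across all probes. Both dye orientations had the same sign, with a mean of 0.25 where OXA was in Cy5 and 0.54 where OXA was in Cy3.

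The sign on single arrays rested on the loess normalization, which removes the trend of the dye ratio with brightness. With each array only centred on its median, NOP56 read 1.40, -0.85, 1.44 and -0.41 on arrays 1 to 4, positive wherever OXA was in Cy5 and negative wherever it was in Cy3. The mean over both orientations was 0.40 with that centring. The ratio written by the scanner software, which applies its own dye normalization, was 0.73, 0.63, 0.12 and 0.53 for NOP56, each with a software error of 0.20 to 0.21. In that version too, array 3 had the smallest value and all 4 were above 0.

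**Figure D1:**
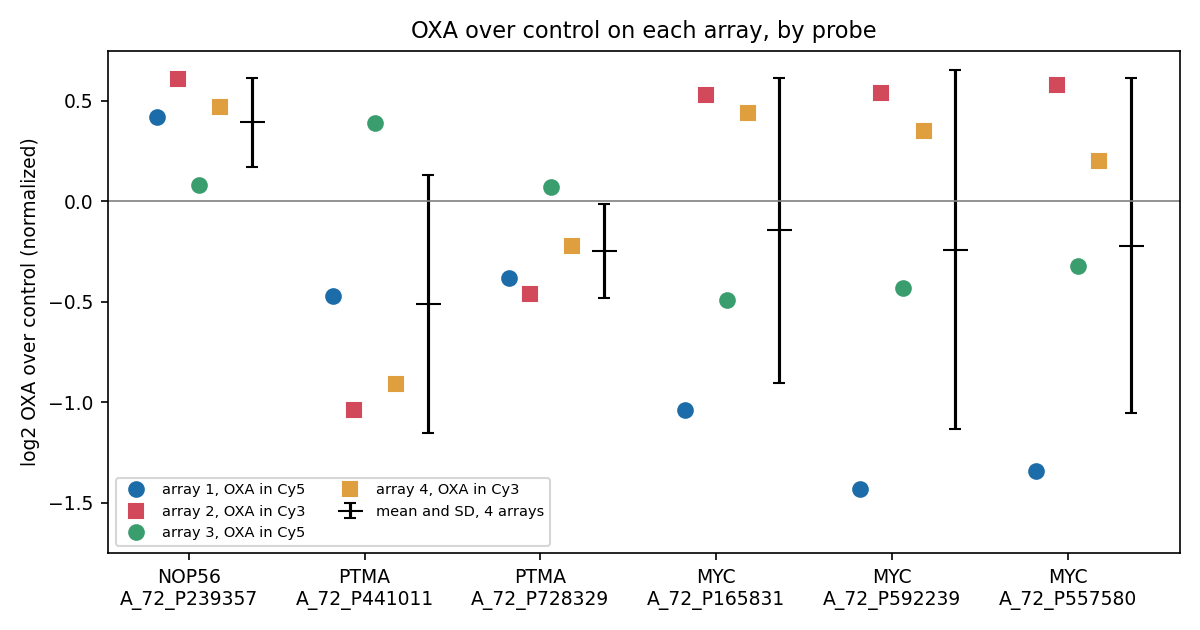
Log2 ratio of OXA over control after loess normalization (vertical axis) for each probe of NOP56, PTMA and MYC (horizontal axis), with 1 point per array and the mean and SD over 4 arrays as bars; circles are arrays with OXA in Cy5 and squares are arrays with OXA in Cy3. NOP56 lies between 0.08 and 0.61, and the MYC probes lie below 0 on both arrays with OXA in Cy5 and above 0 on both with OXA in Cy3.

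After loess normalization, PTMA was lower in the OXA RNA on 3 of 4 arrays and higher on array 3, by both of its probes. For A_72_P441011 the log2 intensity was 17.28 with OXA and 17.75 in control on array 1, 16.73 with OXA and 17.76 in control on array 2, 17.44 with OXA and 17.06 in control on array 3, and 16.84 with OXA and 17.75 in control on array 4. Its OXA over control log2 ratios were -0.47, -1.04, 0.39 and -0.91, with a mean of -0.51 ± 0.64 (SD, n = 4 arrays), a fold of 0.703 and a standard error of 0.20. The spread between arrays was larger than the mean, and the OXA and control intensities overlapped. The second probe, A_72_P728329, gave ratios of -0.38, -0.46, 0.07 and -0.22, with a mean of -0.25 ± 0.24 (SD, n = 4 arrays) and a standard error of 0.18. Both PTMA probes therefore had the same sign on every array, but A_72_P441011 had the larger size on each. In the ratio of the scanner software A_72_P441011 read -0.20, -0.97, 0.17 and -0.59 and A_72_P728329 read -0.31, -0.39, -0.19 and -0.08, so on array 3 the sign of the second probe depended on the normalization. With each array only centred on its median, A_72_P441011 read 0.73, -2.93, 2.23 and -2.13 on arrays 1 to 4. A_72_P728329 then read 0.79, -2.31, 1.84 and -1.39. The sign of both probes on array 1 thus also depended on the normalization.

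The 2 PTMA probes differed by 0.10, 0.57, 0.32 and 0.69 in log2 ratio on arrays 1 to 4, a mean of 0.42. The median of that mean over the 619 genes with exactly 2 tested probes was 0.234, and 85.1% of them differed less than PTMA did. Averaged over both probes, PTMA was at -0.38. In human, PTMA has many processed gene copies of near-identical sequence, and whether other transcripts bound these probes was not tested.

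PTMA also differed by dye orientation. A_72_P441011 averaged -0.04 on the arrays with OXA in Cy5 and -0.97 on those with OXA in Cy3, a dye coefficient of 0.46 on the log2 scale that 4.71% of tested probes exceeded in size. The 270 brightest probes, the top 1% on each array, had median OXA over control ratios of 0.24 and 0.27 on arrays 1 and 3, and of -0.18 and -0.37 on arrays 2 and 4. Some dye trend thus remained at the bright end, with the direction of the split in A_72_P441011. On array 1, though, both PTMA probes were below 0 where that median was above 0. The dye coefficient of A_72_P728329 was 0.09, which 63.6% of tested probes exceeded in size. The part of the dye trend in the PTMA values was not tested. Averaged over both orientations, the brightest 1% of probes had a median of 0.04, with the 10th percentile at -0.32, above the -0.51 of A_72_P441011 and below the -0.25 of A_72_P728329. With array 1 left out, the coefficient of A_72_P441011 was -0.29 and that of A_72_P728329 was -0.14, a change of over 1.5 times in both. In that fit array 3 weighs as much as arrays 2 and 4 together, so these are not plain means.

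**Figure D2:**
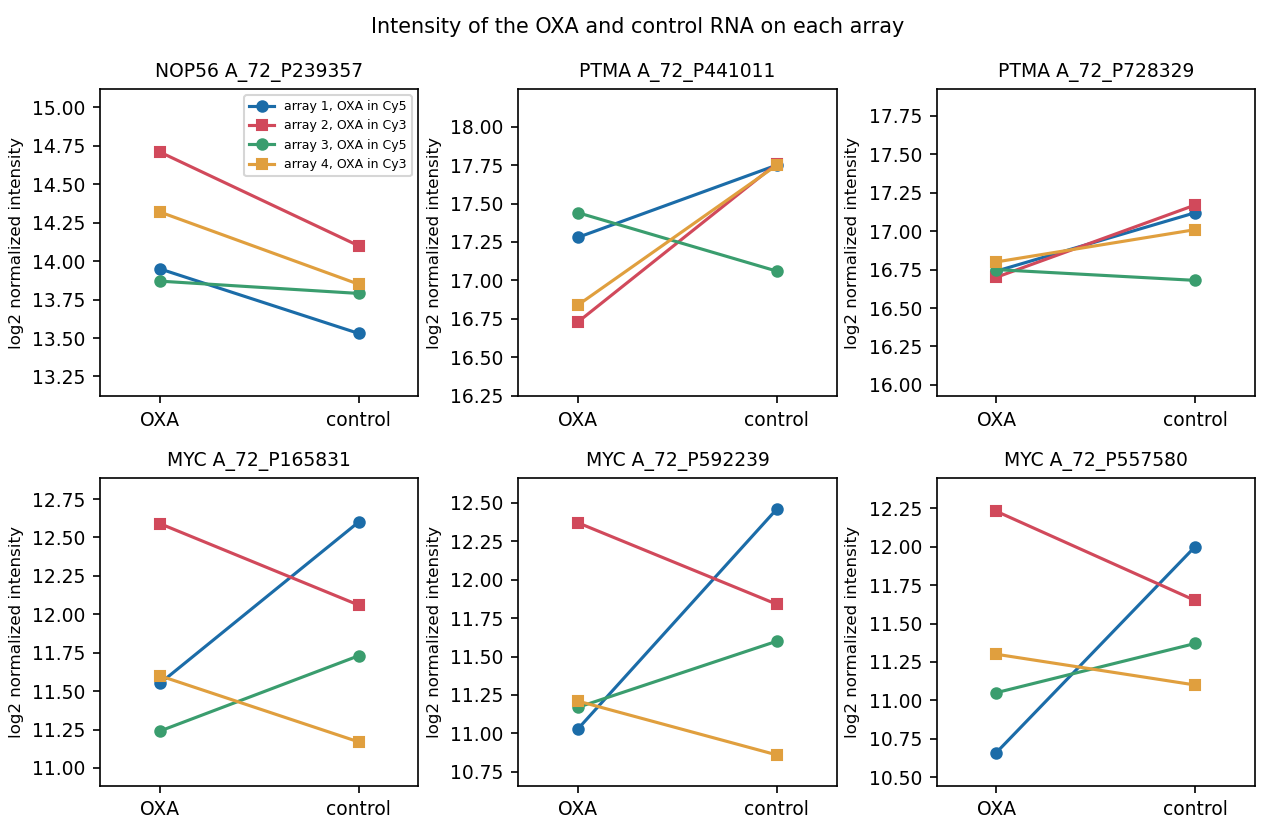
Normalized log2 intensity (vertical axis, own range in each panel) of the OXA RNA (left) and the control RNA (right) for each of the 6 probes, with a line joining the pair hybridised to 1 array. The NOP56 lines all descend toward control, 3 of 4 lines of each PTMA probe ascend, and the MYC lines cross, with OXA lower on arrays 1 and 3 and higher on arrays 2 and 4.

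After loess normalization, MYC had no common direction over the arrays, and its sign followed the dye. Probe A_72_P165831 had a log2 intensity of 11.55 with OXA and 12.60 in control on array 1, 12.59 with OXA and 12.06 in control on array 2, 11.24 with OXA and 11.73 in control on array 3, and 11.60 with OXA and 11.17 in control on array 4. Its OXA over control log2 ratios were -1.04, 0.53, -0.49 and 0.44. MYC was lower with OXA on both arrays where OXA was in Cy5 and higher with OXA on both arrays where it was in Cy3.

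The other MYC probes followed the same order. A_72_P592239 read -1.43, 0.54, -0.43 and 0.35 on arrays 1 to 4, and A_72_P557580 read -1.34, 0.58, -0.32 and 0.20. The mean range over the 3 probes was 0.209 per array, against a median of 0.349 over the 249 genes with exactly 3 tested probes, and 11.2% of those genes had a smaller range. The MYC probes thus gave like readings within an array while the arrays differed. With each array only centred on its median, A_72_P165831 read -0.10, -0.61, 0.60 and -0.25 on arrays 1 to 4. All 3 probes were then below 0 on arrays 1, 2 and 4 and above 0 on array 3. Their signs on arrays 2 to 4 therefore rested on the loess normalization.

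The MYC coefficients over 4 arrays were -0.14 ± 0.76, -0.24 ± 0.89 and -0.22 ± 0.84 (SD, n = 4 arrays) for A_72_P165831, A_72_P592239 and A_72_P557580, with standard errors of 0.18, 0.21 and 0.21. Each SD was more than 3 times its mean. The dye coefficient of A_72_P165831 was -0.63, which 1.80% of tested probes exceeded in size. Array 1 held the lowest value of all 3 MYC probes, and without it their coefficients were 0.00, 0.01 and 0.04. These are not plain means, because array 3 then weighs as much as arrays 2 and 4 together.

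Markers of other cell types also stood apart on array 1. There the 3 tested stromal fibroblast markers lay between 1.25 and 1.40 in OXA over control log2 ratio, with a median of 1.39, and the 7 epithelial markers lay between -1.98 and 0.02, with a median of -1.11. On arrays 2 to 4 the stromal markers ranged from -0.49 to 0.65 and the epithelial markers from -0.78 to 0.99. The part of these markers in the MYC values was not tested. For PTMA probe A_72_P441011, the arrays with the lowest values were arrays 2 and 4, on which the medians of 7 macrophage and other myeloid markers were -0.60 and -1.79, against 0.59 and 0.01 on arrays 1 and 3. The other PTMA probe, A_72_P728329, was lowest on arrays 2 and 1 instead. The 9 T and NK lymphocyte markers had medians of 0.09, -0.66, 0.62 and -1.17 on arrays 1 to 4. On array 1 the myeloid and lymphocyte medians were above 0, where both PTMA probes were below it. The 5 smooth muscle markers had medians of -0.05, -1.05, 0.27 and -0.36 on arrays 1 to 4. Each median had the sign of A_72_P441011, but single markers did not all share it. On array 1 they ranged from -0.54 to 1.35. The part of any of these lists in the PTMA values was not tested.

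**Figure D3:**
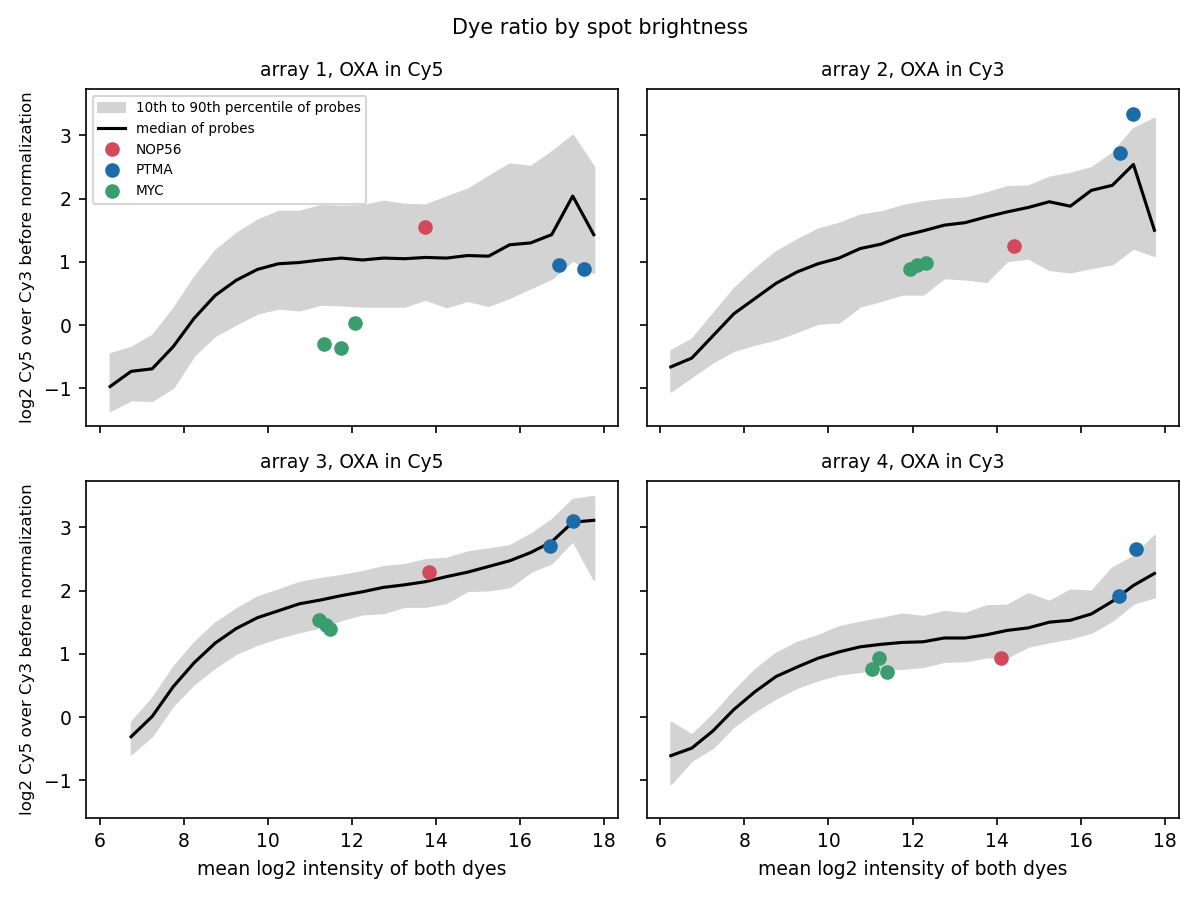
Log2 ratio of Cy5 over Cy3 before normalization (vertical axis) against the mean log2 intensity of both dyes (horizontal axis) on each array, with the median of probes as a line, the 10th to 90th percentiles shaded and the 6 probes as points. MYC lies below the line on all 4 arrays, PTMA lies at the bright end, and NOP56 lies above the line on arrays 1 and 3 and below it on arrays 2 and 4.

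Before normalization, MYC probe A_72_P165831 had log2 Cy5 over Cy3 ratios of 0.03, 0.99, 1.40 and 0.72, and after it -1.04, -0.53, -0.49 and -0.44, so the Cy5 reading was the lower one on each array whichever RNA it carried. NOP56 differed from this, with normalized Cy5 over Cy3 ratios of 0.42, -0.61, 0.08 and -0.47 that changed sign with the dye of the OXA RNA. For PTMA A_72_P441011 they were -0.47, 1.04, 0.39 and 0.91, negative on array 1, which came from the other slide, and positive on the 3 others whichever RNA was in Cy5.

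Set against all tested probes, 0 of the 6 probes passed an adjusted p of 0.05 in limma with Benjamini-Hochberg adjustment, and neither did any of the 26927 probes tested (0%). At an unadjusted p under 0.05, limma counted 1759 probes (6.53%), all of them with a fold of at least 1.2. By that looser rule 1 of the 6 probes, that of NOP56, was counted higher with OXA, against 4.2% of all probes, and 1, PTMA A_72_P441011, was counted lower, against 2.33%. NOP56 was the 1 probe of the 6 above 0 on 4 of 4 arrays, against 7.15% of all probes, and 0 of the 6 were below 0 on 4 of 4, against 5.74%. With OXA read as Cy5 on every array, 0 of the 6 were above 0 on 4 of 4, against 9.32% of all probes, and 3, the MYC probes, were below 0, against 5.14%. As these values chose the genes, nothing is read from the counts.

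The genes that work with NOP56 were measured in part. Of the snoRNP core proteins, 3 of 18 with a pig symbol were tested, and all 3 had a mean above 0, with a median of 0.15 against -0.05 over the 2407 named genes tested. Of those named genes, 40.2% lay above 0. NOP56 itself was the highest of the 3 snoRNP genes. SNU13, which binds the folded RNA of box C/D particles alongside NOP56, was at 0.15 ± 0.07 (SD, n = 4 arrays), with 0.10, 0.12, 0.13 and 0.25 on arrays 1 to 4. Of its 3 probes, 2 had that sign and the lowest was at -0.06. DKC1, the pseudouridine synthase of the other snoRNP class, was at 0.11 ± 0.52, with -0.55, 0.16, 0.10 and 0.73. None of the 3 passed the adjusted p. By the looser rule 1 was counted higher, against 30 of the 2407 named genes, and it was NOP56, which was chosen for its change, so the list's count holds that choice.

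The list of ribosome assembly and RNA polymerase I genes had 6 of 9 tested members above 0 and 3 below, with a median of 0.05. No RNA polymerase I gene of the list was among the 9. None of the 9 passed either rule. Among all named genes tested, 40.2% lay above 0, and the looser rule counted 30 of 2407 higher and 126 lower. NIP7, a factor for ribosomal subunit maturation, was at 0.18 ± 0.36, and NIFK, a nucleolar protein that binds the proliferation antigen Ki-67, was at 0.14 ± 0.34. IMP3, of the small-subunit processome, was at 0.09 ± 0.31, and the RNA helicase gene DDX3X was at -0.16 ± 0.22 (SD, n = 4 arrays for each).

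Around PTMA, 4 of 9 tested genes of acidic nuclear proteins and histone chaperones lay above 0 and 5 below, with a median of -0.11. Over the named genes tested, 40.2% lay above 0. PTMA alone passed the looser rule, which counted 126 of the 2407 named genes lower, and none passed the adjusted p. PTMA was chosen for its change, so the list's counts and median hold that choice. HMGB1, an abundant chromatin protein, was at 0.33 ± 0.58, with all 15 of its probes above 0, and its arrays read 0.73, 0.92, -0.22 and -0.10. ASF1B, a chaperone of histones H3 and H4, was at -0.26 ± 0.64, with -0.47, -0.84, 0.66 and -0.37 on arrays 1 to 4. HMGN2, which binds nucleosomes, was at -0.19 ± 0.30 (SD, n = 4 arrays for each).

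In the list of MYC, its dimer partners and its regulators, 1 of 5 tested genes lay above 0 and 4 below, with a median of -0.14, and none passed either rule. The 5 were MYC and regulators, with no dimer partner among them. For comparison, 40.2% of the named genes tested lay above 0, and the looser rule counted 30 of 2407 higher and 126 lower. CTCF, a zinc-finger protein known to bind the MYC promoter in human cells, was at -0.19 ± 0.27. GSK3B, the kinase that marks MYC protein for breakdown, was at -0.17 ± 0.22, and CTNNB1, which encodes beta-catenin, was at -0.14 ± 0.17. BIN1, whose product binds MYC, was at 0.17 ± 0.04 by its brightest probe, but only 4 of its 7 probes had that sign (SD, n = 4 arrays for each).

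Of the textbook MYC target genes, 30 were tested, 13 above 0 and 17 below, with a median of -0.01. None passed the adjusted p, while 2 were counted higher and 1 lower by the looser rule, and NOP56 and PTMA were among these 3. The other one was HSPD1, the mitochondrial chaperonin, at 0.69 ± 0.54 (SD, n = 4 arrays), with 0.91, 1.34, 0.35 and 0.15 on arrays 1 to 4 and 12 of 12 probes above 0, and an adjusted p of 0.691 in limma. NME1, a nucleoside diphosphate kinase, was at 0.41 ± 0.36, with 0.01, 0.26, 0.55 and 0.83. Over all 2407 named genes, 40.2% lay above 0, and the looser rule counted 30 higher and 126 lower.

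The cell division genes had 1 of 9 above 0 and 8 below, with a median of -0.13, and none passed either rule. Over the named genes tested, 40.2% lay above 0, and the looser rule counted 30 of 2407 higher and 126 lower. The highest of the 9 was at 0.00, so some of these signs rest on values next to 0. CDK1, the mitotic kinase, read 0.11, -0.73, 0.88 and -0.89, and its 2 probes differed in sign. The mitotic kinase AURKB was at -0.19 ± 0.29, and the cell cycle inhibitor CDKN1B at -0.16 ± 0.12 (SD, n = 4 arrays for each).

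**Figure D4:**
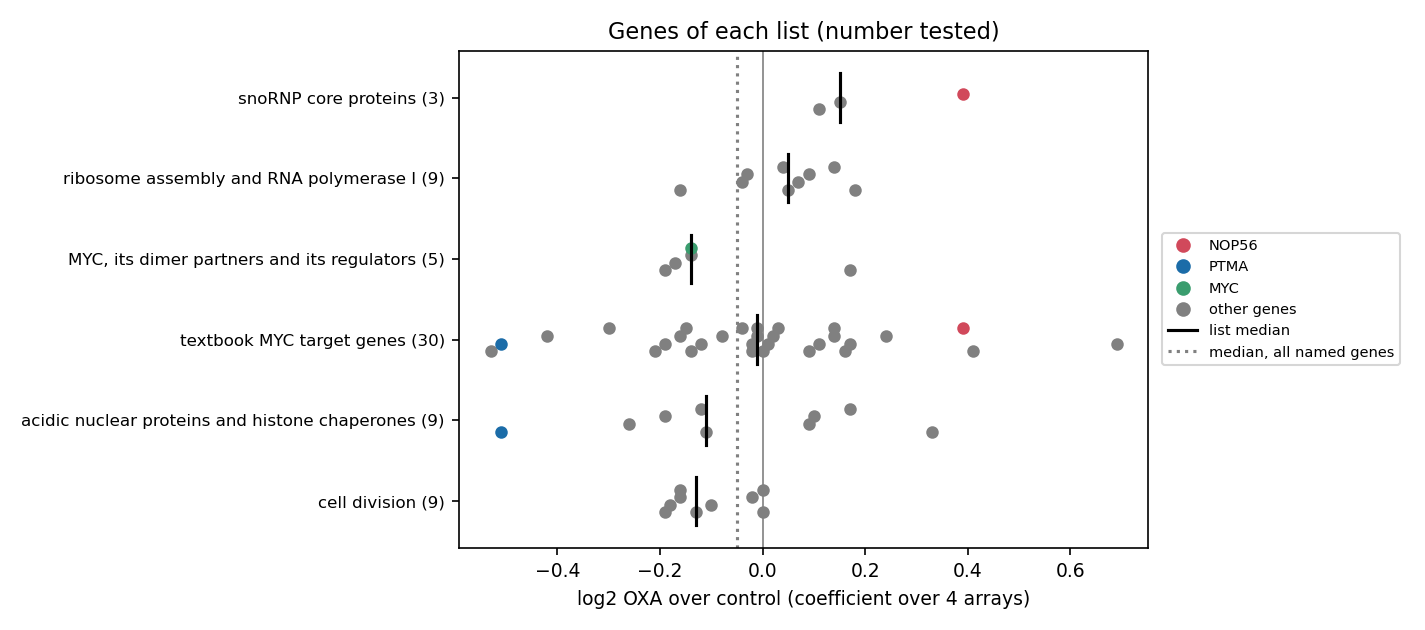
Log2 OXA over control coefficient over 4 arrays (horizontal axis) of each tested gene in 6 gene lists (vertical axis), with NOP56, PTMA and MYC in colour, list medians as black bars and the median of all named genes, -0.05, as a dotted line. The 3 snoRNP genes lie between 0.11 and 0.39, and the MYC target genes lie on both sides of 0, from -0.53 to 0.69.

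The named genes closest to each member were ranked by Euclidean distance over the ratios on the 4 arrays, among 2406 other genes. For NOP56 they were ATP5O at 0.14, PHYH at 0.17, ESD at 0.33, SRSF6 at 0.35 and KATNBL1 at 0.36, against a median distance of 1.21. ATP5O, a subunit of the mitochondrial ATP synthase, read 0.37, 0.61, 0.09 and 0.34 on arrays 1 to 4. All 5 had their lowest value on array 3, as NOP56 had, a likeness that ranking on these same values favours.

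For PTMA the closest were CCL3L1 at 0.32, SLA-DOA and CTSZ at 0.37, TPT1 at 0.39 and SCG5 at 0.43, against a median of 1.58. CCL3L1 is a chemokine gene, SLA-DOA belongs to the class II antigen presentation genes, and CTSZ is a lysosomal protease gene. All 5 were below 0 on arrays 1, 2 and 4 and above 0 on array 3, as A_72_P441011 was. For MYC the closest were DLX5 at 0.38, NABP1 at 0.42, ARPC1A and TMED10 at 0.49 and KLF10 at 0.50, against a median of 1.5. All 5 were below 0 on arrays 1 and 3 and above 0 on arrays 2 and 4. The ranking used these same array values, so the signs shared with PTMA and MYC follow largely from the choice. The distances are over 4 arrays and carry no test, and with normexp background correction fitted on all spots only 2, 1 and 1 of these 5 genes each were again among the nearest to NOP56, PTMA and MYC.

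Across 17 alternative settings, the NOP56 mean was above 0 in 16 and the means of both PTMA probes were below 0 in 16. The exception for each was the reading with OXA in Cy5 on every array, which gave NOP56 -0.14, PTMA A_72_P441011 0.46, PTMA A_72_P728329 0.09 and the MYC probes -0.63, -0.69 and -0.61. Changing the filter on dim probes, dropping the dye coefficient, robust fitting with an intensity trend and array weights all left these probes at their reported coefficients. Leaving out array 1 and keeping only the slide of the other arrays gave the same values. The scanner software's ratio and the deposited table also gave the same values as each other. The count of 16 is therefore not a count of independent checks.

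**Figure D5:**
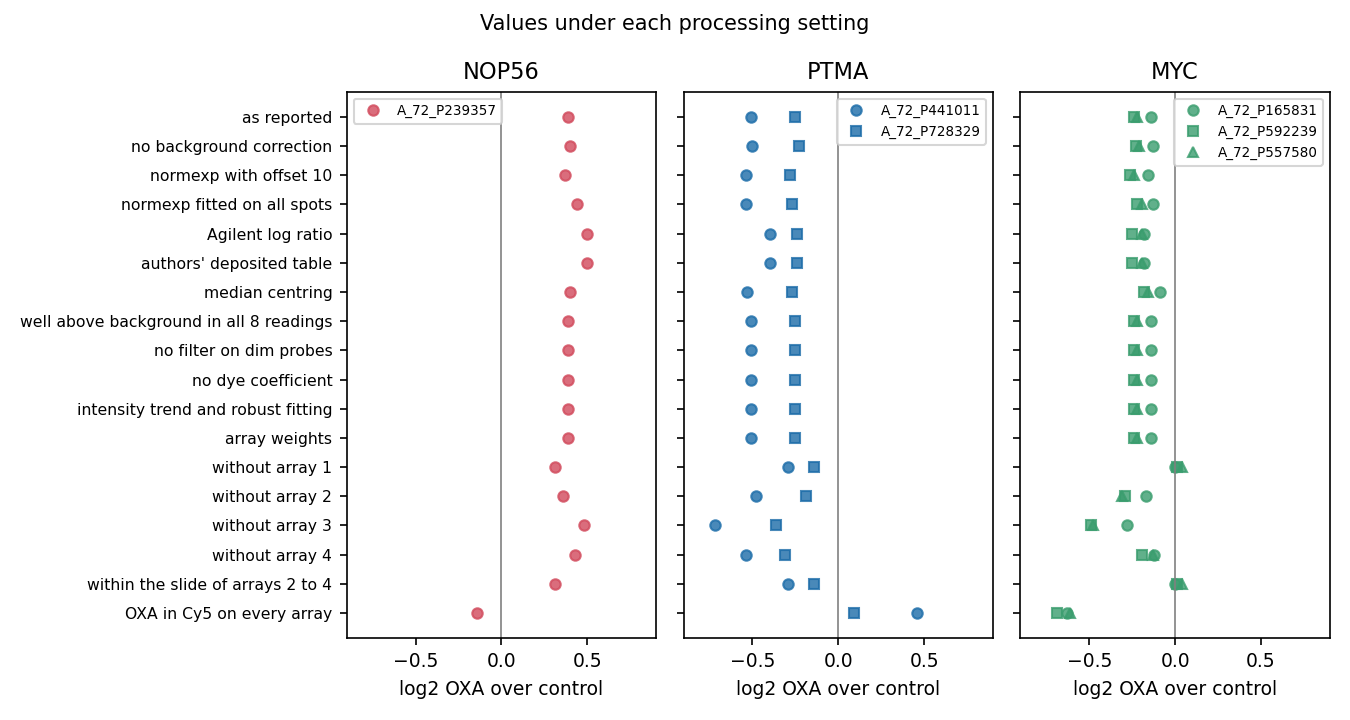
Log2 OXA over control (horizontal axis) of each NOP56, PTMA and MYC probe under the reported setting and its alternatives (vertical axis). NOP56 lies between -0.14 and 0.50 and turns below 0 only with OXA read as Cy5 on every array, where both PTMA probes lie above 0, while the MYC probes lie near 0 without array 1.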

How the data were processed

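The deposited scanner files, which per the file headers came from Agilent Feature Extraction 10.7.3.1, give median spot and local background intensity in both dyes. Beside these stand the scanner software's log10 ratio of Cy5 over Cy3 and other marks, per the file headers, for spots well above background, saturated or outlying. The deposited value table holds log2 ratios; against the scanner ratios over 43420 probes its slopes were 1.06, -1.00, 1.04 and -1.03, so its scale and direction are OXA over control, with column medians of -0.17, 0.06, -0.06 and 0.09 and an unknown centring.

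Medians were corrected by normexp (offset 50), normalized by loess and then fitted with an OXA and a dye coefficient in limma 3.58.1 (R 4.3.3), with Benjamini-Hochberg adjustment over 26927 probes. A probe needed 4 of 8 readings well above background and a value on all 4 arrays, which dropped 135. The fit had 2 residual degrees of freedom, 8.91 after moderation, and p-values measure the spread between these arrays, which may be partly technical. Precision is limited by the number of arrays.

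The reported background correction is the second version run. In the first, normexp was fitted on all spots, and the values of NOP56, PTMA and MYC were seen. A few spots with local background far above their signal (net signals down to -300362) had put its fitted background mean at -96.4 to -2113, which adds that amount to every spot. It was then refitted with outlier-marked spots left out of the parameter estimates (means of 7.42 to 110) and applied to all spots. The fixed design did not say at which step such spots leave. The change was made after results under both were known, and the first version's values are given with the alternatives.

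Of 7125 probes with a RefSeq identifier, 6700 matched the reference gene table, naming 3029 genes; 36903 probes have no gene name here. A gene is given by its brightest tested probe. The genes and lists were chosen with earlier results of these data known. Named were all probes of NOP56, PTMA and MYC, up to 4 genes of each of 6 lists by lowest unadjusted p, and the 5 nearest genes of each; the 9 marker lists were used as lists only. Some genes that this rule names are not reported here. The erythroid list had no gene on the array, the single B cell marker tested had a coefficient of -0.39, and 4 trophoblast markers had a median of 0.00. The fit was tested on simulated data.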

Additional observations from a re-analysis of the deposited data

Results flagged for a closer look

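Of 55 sets of 4 array values checked, 4 had 1 array far from the other 3, and chance alone marks about 1 set in 20. The median of the 3 snoRNP core protein genes was 0.47 on array 4, against 0.10 to 0.16 on the other arrays. The median of MYC and the tested regulators of its list was -0.34 on array 1, against 0.00 to 0.06 on the others. The median of the endothelial markers was 0.64 on array 1, against -0.51 to -0.45 on the others. ESD, one of the genes nearest to NOP56, was -0.19 on array 3, against 0.38 to 0.50 on the others.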

How the results depend on the processing

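Some of the alternative settings cannot move a probe's coefficient, so part of the agreement below was fixed in advance. Of 206 recomputed values of the 6 probes and the 6 list medians, 200 moved by less than 1 SD over arrays, but 17 changed sign, 11 of them within that SD. These 11 were MYC A_72_P592239 at 0.01 and A_72_P557580 at 0.04, the acidic nuclear protein median at 0.07 and the MYC target median at 0.04, each without array 1 and so also within the slide of arrays 2 to 4, the MYC target median at 0.03 with median centring, and the ribosome assembly median at -0.04 without array 3 and -0.01 with normexp fitted on all spots. With OXA read as Cy5 on every array, NOP56 was -0.14, the PTMA probes 0.46 and 0.09, the snoRNP median -0.14, the ribosome assembly median -0.25, the cell division median 0.12, and 358 probes were lower by the looser rule. Leaving out 1 array each gave 0.31 to 0.48 for NOP56, -0.72 to -0.29 and -0.36 to -0.14 for PTMA, and -0.28 to 0.00, -0.49 to 0.01 and -0.48 to 0.04 for MYC. Probes past the adjusted p numbered 0 to 579 with 1 array left out: 3 without array 1, which is also the count within the slide of arrays 2 to 4, 61 without array 2, 0 without array 3 and 579 without array 4. By the looser rule, 1131 higher and 628 lower probes became 2558 and 394 with median centring, 407 and 416 with all 8 readings well above background, 176 and 308 within the slide, and 176 to 3103 higher and 308 to 1240 lower with 1 array left out. The stricter filter left 13594 probes to test, against 26927. The cause of these changes was not tested.

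Normexp fitted on all spots, the first version run, gave 177 higher and 179 lower, and 509 probes at an unadjusted p under 0.05 against 1759. It put NOP56 at 0.44 ± 0.10 (0.48, 0.47, 0.28 and 0.52 on arrays 1 to 4) and PTMA at -0.54 (-0.36, -1.17, 0.01 and -0.64) and -0.27 (-0.27, -0.60, -0.24 and 0.03). MYC was -0.13 (-0.95, 0.38, -0.08 and 0.15), -0.22 and -0.19. Of 15 nearest genes named, 4 were also named under it, and of 23 places for list genes 18 were. No paired analysis was possible because there is only 1 group of arrays, with no second group to share its numbers; the ratio on each array is itself a pair of an OXA RNA and a control RNA.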
